A study of Saccharomyces cerevisiae with 7 samples.

Results

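The 10 yeast genes described here let a cell take up and break down allantoin and urea, nitrogen sources that yeast uses when better ones have run out. They were chosen by their systematic names and cover 3 transporter genes (DAL4 YIR028W, DAL5 YJR152W and DUR3 YHL016C), 5 enzyme genes (DAL1 YIR027C, DAL2 YIR029W, DAL3 YIR032C, DAL7 YIR031C and DUR1,2 YBR208C) and 2 activator genes (DAL81 YIR023W and DAL82 YNL314W). All 10 names are rows of the deposited table of 6141 rows, and the gene names given by the RefSeq R64 table are those of the label, with DUR1,2 written as DUR12. Values were present for 9 of the 10. DUR1,2, the urea amidolyase gene, is among the 475 rows with no value at any time point and is not analysed here, so 5666 rows with values form the background.

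Messenger RNA of Saccharomyces cerevisiae cultures in meiosis was set against a pool drawn from all time points on 2-colour arrays, at 1, 2, 3, 4, 5, 6 and 8 h. Each deposited value is the log2 of that ratio relative to the same ratio at 0 h, so 0 is the level at 0 h and a value of 1 is a level 2-fold above it. The series design names 3 independent cultures, but the table has a single column per time point, so no value has a replicate error and no single time point can be tested against 0 h. As far as the labels say, the groups differ in time alone. Of strain, genotype, medium and the state of the cells at 0 h, the labels used here say nothing. The cultures held the messages of meiosis, with the recombinase gene DMC1 between 4.68 and 5.83 throughout and the meiotic transcription factor gene NDT80 at -0.10 at 2 h and 6.90 at 5 h.

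Allantoin is a purine breakdown product that stores nitrogen. Allantoinase (Dal1) opens it to allantoate, allantoicase (Dal2) splits allantoate into urea and ureidoglycolate, and ureidoglycolate lyase (Dal3) releases the remaining urea together with glyoxylate, which malate synthase (Dal7) can join to acetyl-CoA. Urea amidolyase turns urea into ammonium and carbon dioxide. The pathway's genes are repressed while good nitrogen sources last, through GATA-binding factors, and most of them are induced by allophanate, an intermediate of urea breakdown, through Dal81 and Dal82.

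The measured transporter and enzyme genes all stood at least 2-fold above 0 h at 1 h, and 6 of these 7 then fell. At 1 h 7 of the 9 measured genes were at or above a log2 ratio of 1, where 7.11% of all genes were. At 8 h the number was 3, at a background of 17.6% (2 and 14.2% with the columns scaled to the same SD), and 1, DAL7, was at least 2-fold below 0 h, where 12.8% of all genes were. The median of the 9 was 2.48, 1.71, 1.09, 1.05, 0.26, 0.12 and -0.06 from 1 h to 8 h, while the median of all genes stayed between -0.04 and 0.01. In these bulk samples, fewer cells that hold a message and less message per cell cannot be told apart.

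Below, induced means a log2 ratio of at least 1 held over 2 or more neighbouring time points, and repressed one of at most -1 held likewise, a rule of size with no test. By that rule 6 of the 9 were induced, against 21.8% of all genes, and 1, DAL7, was repressed, against 16.4%. DAL81 and DAL82 met neither rule. A limma fit of each gene's 7 values to a quadratic curve of time gave a test for change within the course. Its p-values were adjusted over all 5666 genes by the Benjamini-Hochberg method. They are for the whole curve and not for the fitted difference printed beside them. A called gene was counted as downward, or as fallen, when its fitted difference between 8 h and 1 h was negative. That test called 7 of the 9 members, all downward, where it called 48.5% of all genes in either direction and 25.2% downward. The number of all genes called, 2747, was 1488 without the 2 h column and 1405 without the 6 h column, and the number of members called was 7 without any single column. These p-values rest on how far the points lie from the curve. The spread between cultures is not in them, and errors shared by neighbouring time points can make them too small. An error at 0 h shifts all 7 values of a gene alike and does not enter them.

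**Figure D1:**
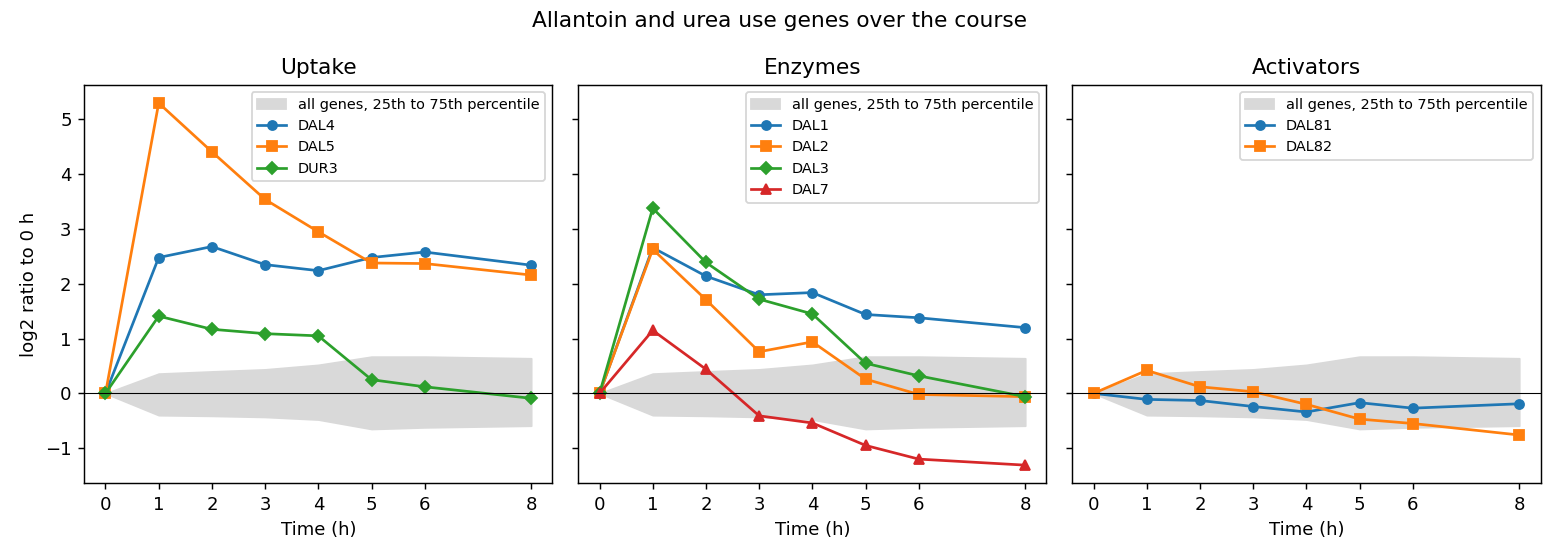
Log2 ratio to 0 h (vertical axis) against time in hours for the 3 transporter genes, the 4 measured enzyme genes and the 2 activator genes, with 1 deposited value per point, 0 h set at 0 by construction, and a grey band from the 25th to the 75th percentile of all genes. DAL5 starts highest at 5.30 at 1 h and declines, DAL4 stays between 2.24 and 2.68, DAL7 ends at -1.31, and DAL81 stays between -0.34 and -0.11.

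The transporter genes followed 3 different courses. DAL5 encodes the allantoate permease, which also carries ureidosuccinate and some dipeptides. Its log2 ratios were 5.30, 4.41, 3.54, 2.95, 2.38, 2.37 and 2.16 from 1 h to 8 h. The 1 h value is a level 39.4-fold that at 0 h and ranked 3 of 5666 genes, and no step between neighbouring time points went up. DAL5 fell over the course, with a fitted difference between 8 h and 1 h of -3.12 on the log2 scale (SE 0.16, adjusted p = 0.00249 by limma), and 74.8% of the measured difference lay before 4 h. It was still 4.47-fold above 0 h at 8 h. With the columns scaled to the same SD its log2 ratio at 1 h was 6.95 and its fitted difference -5.69, so these sizes depend on the deposited scale.

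DUR3, which encodes a plasma membrane transporter of urea that also carries polyamines, was less high and held its level longer. Its log2 ratios were 1.41, 1.17, 1.09, 1.05, 0.25, 0.12 and -0.09 from 1 h to 8 h. All 4 values up to 4 h were above 1 and all 3 later ones were 0.25 or less. Only 24.0% of the difference between 1 h and 8 h lay before 4 h, and its largest step, -0.80, was between 4 h and 5 h. DUR3 fell over the course by a fitted difference of -1.65 (SE 0.25, adjusted p = 0.0106 by limma). Between 4 h and 5 h 10.7% of all genes differed by 2-fold or more, more than between any other neighbouring time points, and the SD of the log2 ratios over all genes was 1.05 at 4 h and 1.48 at 5 h. The part of this column-wide difference in the step of DUR3 was not tested.

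DAL4, the gene of the allantoin permease, stayed high. Its log2 ratios were 2.48, 2.68, 2.35, 2.24, 2.48, 2.58 and 2.34 from 1 h to 8 h, a range of 0.44 over the course. Every value was at least 4.72-fold above 0 h. The fitted difference between 8 h and 1 h was -0.12 (SE 0.21, adjusted p = 0.861 by limma), with a scatter around the curve of 0.18. Its rank among all genes was 60 at 1 h and 355 at 8 h, and the SD over all genes was 0.894 at 1 h and 1.51 at 8 h. With each column scaled to the same SD over genes, DAL4 was called and its fitted difference was -1.86 (adjusted p = 0.0194 by limma), so its level course depends on taking the deposited scale as it stands.

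The genes of the enzymes that turn allantoin into urea were high at 1 h and fell, and they ended at different levels. DAL1, for allantoinase, had log2 ratios of 2.66, 2.14, 1.80, 1.84, 1.44, 1.38 and 1.20 from 1 h to 8 h. It fell by a fitted difference of -1.36 (SE 0.17, adjusted p = 0.00611 by limma) and was at least 2-fold above 0 h at all 7 time points, as were DAL4 and DAL5. Such a level was kept throughout by 3 of the 9 members, against 2.88% of all genes. With the columns scaled to the same SD, DAL1 stood at 0.93 at 8 h and the count was 2 of the 9, against 3.23%, and the fitted difference of DAL1 was -2.68.

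DAL2, for allantoicase, began at nearly the same value as DAL1 and ended lower. Its log2 ratios were 2.63, 1.71, 0.76, 0.94, 0.26, -0.02 and -0.06 from 1 h to 8 h. The fitted difference was -2.57 (SE 0.27, adjusted p = 0.00404 by limma). Its call as induced rests on the 1 h and 2 h columns, and without either of them the rule of size was not met.

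DAL3, for ureidoglycolate lyase, had log2 ratios of 3.38, 2.39, 1.72, 1.45, 0.55, 0.32 and -0.06 from 1 h to 8 h. It stood 10.4-fold above 0 h at 1 h and 0.959-fold the 0 h level at 8 h, with no upward step. Its measured difference between 8 h and 1 h, -3.44, was the 6th most negative of all 5666 genes (fitted -3.40, SE 0.20, adjusted p = 0.00249 by limma). Its largest step, -0.99, followed the 1 h sample, and another of -0.90 followed the 4 h sample.

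DAL7, a malate synthase gene, crossed the 0 h level. Its log2 ratios were 1.15, 0.44, -0.41, -0.54, -0.95, -1.20 and -1.31 from 1 h to 8 h. It fell by a fitted difference of -2.40 (SE 0.18, adjusted p = 0.00249 by limma). Its call as repressed rests on the 6 h and 8 h columns, and without either of them, or with the columns scaled to the same SD, the rule was not met. MLS1, the gene of the other malate synthase, which serves the glyoxylate cycle, had log2 ratios of 0.94, -0.02, -0.88, -0.79, -1.69, -1.73 and -1.78 from 1 h to 8 h. MLS1 was below DAL7 at every time point, by 0.21 to 0.74, and fell as well (fitted -2.63, SE 0.26, adjusted p = 0.0036 by limma). The 2 genes are paralogs of similar sequence and the array's probes are not known here, so their separate values are uncertain.

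Of the other genes that handle glyoxylate, ICL1, for the isocitrate lyase that makes it, stood between 0.06 and 0.56 (adjusted p = 0.0538 by limma). AGX1, for the alanine:glyoxylate aminotransferase, stood between -2.24 and -1.47 (adjusted p = 0.252 by limma). In that list of 3, with MLS1, 1 was called and it fell, where 48.5% of all genes were called and 25.2% downward.

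The activator genes stayed within 2-fold of 0 h, and DAL82 fell while DAL81 was not called. DAL81, whose product is also needed for the use of GABA, had log2 ratios of -0.11, -0.13, -0.24, -0.34, -0.17, -0.27 and -0.19 from 1 h to 8 h. Its fitted difference was -0.08 (SE 0.15, adjusted p = 0.582 by limma). DAL82, whose product binds the upstream induction sequence of these genes, had log2 ratios of 0.42, 0.12, 0.03, -0.20, -0.47, -0.55 and -0.76 from 1 h to 8 h. DAL82 fell with no upward step, by a fitted difference of -1.19 (SE 0.14, adjusted p = 0.00579 by limma), without a 2-fold departure from 0 h at any time point. At 1 h the 7 measured transporter and enzyme genes ranged from 1.15 to 5.30.

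**Figure D2:**
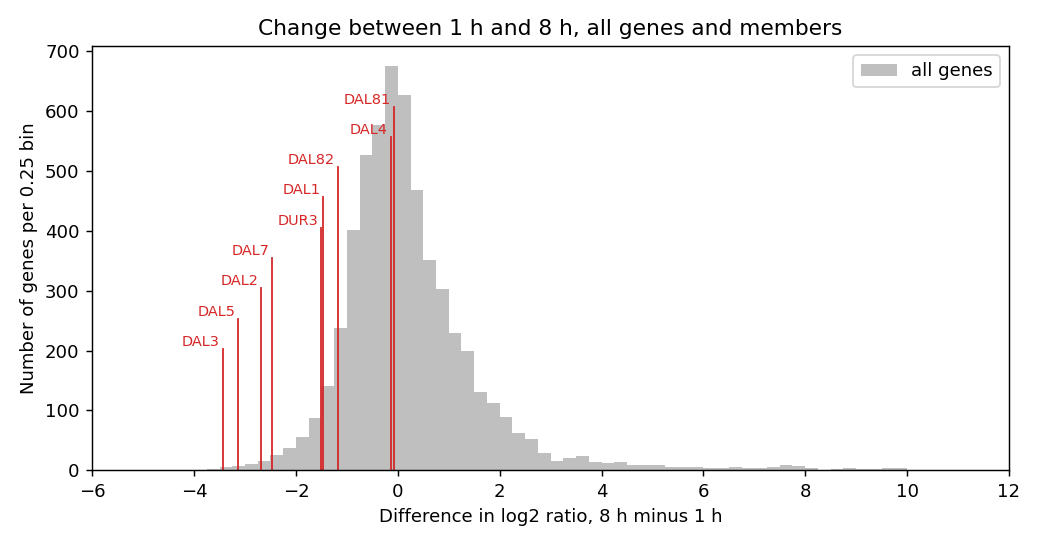
Histogram of the difference in log2 ratio, 8 h minus 1 h, for all 5666 genes (grey, number of genes per bin of 0.25), with a red line at the difference of each measured member; the height of a line has no meaning. DAL3 at -3.44, DAL5 at -3.14, DAL2 at -2.69 and DAL7 at -2.46 lie in the lower tail, DUR3, DAL1 and DAL82 between -1.50 and -1.18, and DAL4 and DAL81 at -0.14 and -0.08.

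The size of the decline separated the members further. A difference between 8 h and 1 h of -1 or less was found in 7 of the 9, against 11.2% of all genes. With the columns scaled to the same SD, 8 of the 9 had such a difference, against 10.9%. As deposited, all 9 differences were below 0, against 49.5%, but DAL4 and DAL81 differed by only -0.14 and -0.08 and were not called. The share of that difference already present at 4 h was 74.8% for DAL5, 68.7% for DAL7, 62.8% for DAL2, 56.2% for DAL1, 56.1% for DAL3 and 52.5% for DAL82, above the 24.0% of DUR3. Of the 9, 5 (DAL5, DUR3, DAL3, DAL7 and DAL82) had no upward step at all, as did 3.27% of all genes, and the single upward step of DAL1 was 0.04 and that of DAL2 was 0.18. A 2-fold or larger difference between neighbouring time points was found in 0 of the 9, against 16.8% of all genes. With the columns scaled to the same SD it was found in 4 of the 9, against 19.5%.

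In shape, on the deposited scale, the members fell into a common course and 2 exceptions. Pearson correlations over the 7 values, between the 7 members other than DAL4 and DAL81, lay between 0.883 and 0.994 in 21 pairs. DAL4 correlated with the other members at 0.027 to 0.580 and DAL81 at 0.178 to 0.580. The 7 points of each gene share their columns and the division by 0 h, and the 2 exceptions were set apart after the values were seen, so these correlations are a description. The place of DAL4 as an exception depends on the deposited scale. Scaled to the same SD per column, DAL4 was at 3.25 at 1 h and 1.82 at 8 h. It was then called downward (fitted -1.86, adjusted p = 0.0194 by limma). Correlations of scaled values were not taken.

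Apart from DUR3, DUR1,2, DAL5 and DAL82, the members lie on chromosome IX, and 5 of them form the DAL cluster together with DCG1, a gene of unknown function. In chromosomal order by the R64 table the 6 genes are DAL1, DAL4, DAL2, DCG1, DAL7 and DAL3. DCG1 had log2 ratios of 1.13, 1.37, 1.17, 1.30, 0.81, 0.51 and 0.20 from 1 h to 8 h. It was induced by the rule of size and fell over the course (fitted -1.14, SE 0.22, adjusted p = 0.0165 by limma). It held its level up to 4 h, unlike its neighbours DAL2 and DAL7, whose values at 4 h were 1.69 log2 units below those at 1 h in both cases.

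All 6 genes of the cluster were at least 2-fold above 0 h at 1 h, and 1 of the 6 flanking genes was, against 7.11% of all genes. The cluster genes other than DCG1 are members already counted above. The contrast depends on the cut, as the flanking gene MGA2 stood at 0.99 at 1 h and was above DCG1 at every later time point. DAL1 and DAL4 are neighbours read in opposite directions from the space between them, and their values at 1 h were 2.66 and 2.48, but at 6 h DAL4 was above DAL1 by 1.20. That difference in course was not tested. On the DAL1 side YVH1, for a phosphatase with a role in ribosome assembly, stood at -1.54 at 1 h and 0.11 at 3 h. MND2, for a subunit of the anaphase-promoting complex, stood between 0.43 and 0.97, and INA22, for a mitochondrial protein of ATP synthase assembly, between -0.82 and 0.23. These 3 were not called by the trend test.

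On the DAL3 side MGA2, which encodes an activator of the fatty acid desaturase gene, was induced (1.63 at 2 h) but not called by the trend test (adjusted p = 0.0762 by limma). LYS1, of lysine synthesis, was at 1.15 at 1 h, -1.24 at 5 h and 0.24 at 8 h (adjusted p = 0.0109 by limma). NRE1 was between -0.80 and -0.04 (adjusted p = 0.017 by limma). Of the 6 cluster genes 5 were called, 4 of them members counted above, and of the 6 flanking genes 2 were, where 48.5% of all genes were called. The difference was not tested. Between DAL81, on the same chromosome, and DAL1 lie 3 genes, the flanking ones named first.

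**Figure D3:**
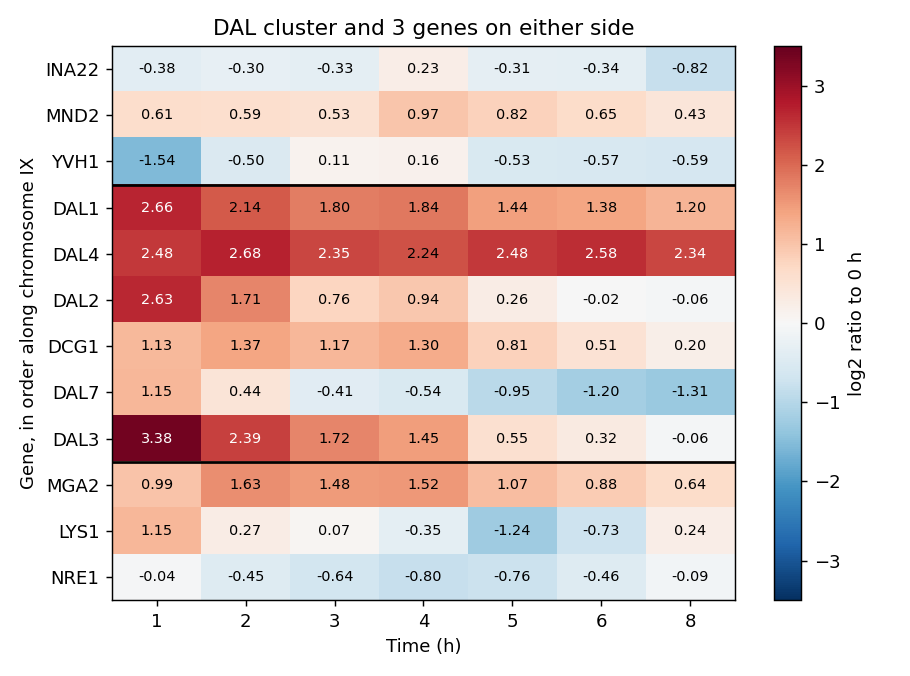
Heat map of the log2 ratio to 0 h by time in hours (columns) for 12 neighbouring genes in their order on chromosome IX (rows), with each deposited value printed in its cell and black lines around the 6 genes of the DAL cluster. The cluster rows are all above 1 at 1 h, DAL4 stays above 2 throughout, and DAL7 is the cluster gene that ends below -1.

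The 4 GATA factor genes, whose products set nitrogen repression of the pathway, stood at 1.28 in the median at 1 h and at 0.22 at 8 h. With URE2, a regulator that is no GATA factor, the list had 5 genes, and 3 of the 5 were called, all downward, where 48.5% of all genes were called and 25.2% downward. DAL80, which encodes a repressor of these genes and is itself under nitrogen repression, had log2 ratios of 4.84, 3.94, 3.40, 3.11, 3.17, 3.20 and 3.15 from 1 h to 8 h (fitted -1.40, SE 0.23, adjusted p = 0.00716 by limma). On the deposited scale DAL80 stayed above 3 while DAL2, DAL3 and DUR3 came down to their 0 h level. The SD over all genes was 1.05 at 4 h and 1.51 at 8 h, and DAL80 was not examined with scaled columns. GAT1, for an activator, fell to 0.20 at 8 h, against 1.69 at 1 h (adjusted p = 0.00483 by limma), and GZF3, for another repressor, to -1.03, against 0.86 (adjusted p = 0.00606 by limma). GLN3, for the other activator, stood between -0.29 and 0.42 (adjusted p = 0.0659 by limma), and URE2, whose product holds Gln3 in the cytoplasm, between -0.62 and -0.12 (adjusted p = 0.161 by limma).

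Of 19 other genes under nitrogen repression, 13 fell, 2 rose and 4 were not called, against 25.2% of all genes called downward and 48.5% in either direction. In the median the 19 stood at 0.62 at 1 h and at -0.18 at 8 h. The 13 are counted by the fitted difference, and not all fell steadily. UGA2 stood at 0.43 at 1 h, -1.06 at 5 h and 0.17 at 8 h, and CAR2 at 2.69, 0.38 and 0.99. The ammonium permease gene MEP2 fell to 1.70 at 8 h, against 6.61 at 1 h (adjusted p = 0.00355 by limma), and the general amino acid permease gene GAP1 to -0.12, against 4.10 (adjusted p = 0.00333 by limma). DIP5, for a permease of acidic amino acids, fell to -2.77, against 1.04 (adjusted p = 0.00277 by limma). The 2 that rose were GLN1, for glutamine synthetase, which stood at 2.42 at 8 h, against -0.41 at 1 h (adjusted p = 0.0116 by limma), and the peptide transporter gene PTR2, at 1.72, against -0.01 (adjusted p = 0.00284 by limma). PUT4, for the proline permease, was the lowest of the list throughout, between -4.03 and -2.09. By the rule of size 8 of the 19 were induced, against 21.8% of all genes, and 8 were repressed, against 16.4%, with CPS1, for a vacuolar carboxypeptidase, in both classes.

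Nearest to the urea step stand arginase, which makes urea from arginine, and the ligase that attaches biotin to urea amidolyase. CAR1, for arginase, had log2 ratios of 2.34, 2.21, 2.27, 2.40, 1.56, 1.41 and 0.75 from 1 h to 8 h (fitted -1.66, SE 0.25, adjusted p = 0.00961 by limma). Like DUR3 it held its level up to 4 h and was lower from 5 h on. Between 4 h and 5 h 10.7% of all genes differed by 2-fold or more, and the part of this in the likeness was not tested. BPL1, the biotin ligase gene, fell to -0.71 at 8 h, against 0.15 at 1 h (adjusted p = 0.017 by limma).

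Genes that work with or beside Dal81 in other pathways were called in 4 of 4 cases, 3 downward and 1 upward, where 48.5% of all genes were called. UGA3, for the GABA pathway activator, fell to 0.77 at 8 h, against 1.50 at 1 h, with its lowest value of 0.24 at 5 h (adjusted p = 0.00513 by limma). STP1, for an activator of amino acid permease genes, fell to -1.32, against 0.06 (adjusted p = 0.00433 by limma). STP2, its paralog, stood at 0.39 at 8 h, against 0.79 at 1 h, with its lowest value of -0.31 at 5 h (adjusted p = 0.0489 by limma). SSY1, for the amino acid sensor upstream of both, rose to 1.94, against 0.28 (adjusted p = 0.0162 by limma).

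Some genes outside the list had nearly the same values as a member. Likeness was measured, over the 7 time points, as the root mean square difference in log2 ratio to 4765 genes with a standard name. The nearest genes to DUR3 were SRY1, for a hydroxyaspartate dehydratase (difference 0.089, Pearson r 0.993), and AVT4, for a vacuolar amino acid exporter (0.092, r 0.996). MEP1, the gene of another ammonium permease, was the nearest to DUR3 when genes were ranked by r, a ranking added after the values were seen (0.098, r 0.999). The nearest to DAL5 were DAL80 (0.629, r 0.937) and the carbonic anhydrase gene NCE103 (0.660, r 0.982), and those to DAL3 were GDH3, for a glutamate dehydrogenase (0.345, r 0.994), and CIT3, for a mitochondrial citrate synthase (0.397, r 0.971).

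For DAL1 the nearest were FOX2, of peroxisomal fatty acid oxidation (0.109, r 0.993), and GLT1, for glutamate synthase (0.236, r 0.907). For DAL2 they were CTA1, for peroxisomal catalase (0.203, r 0.987), and DLD3, for a dehydrogenase of hydroxy acids (0.226, r 0.973). For DAL7 they were ALD4, for mitochondrial aldehyde dehydrogenase (0.221, r 0.973), and POT1, for peroxisomal thiolase (0.226, r 0.969). For DAL4 they were PEX9, for a peroxisomal import receptor (0.276, r 0.380), and RIM4, for a meiotic RNA-binding protein (0.344, r -0.112), so these matched it in height and not in shape.

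**Figure D4:**
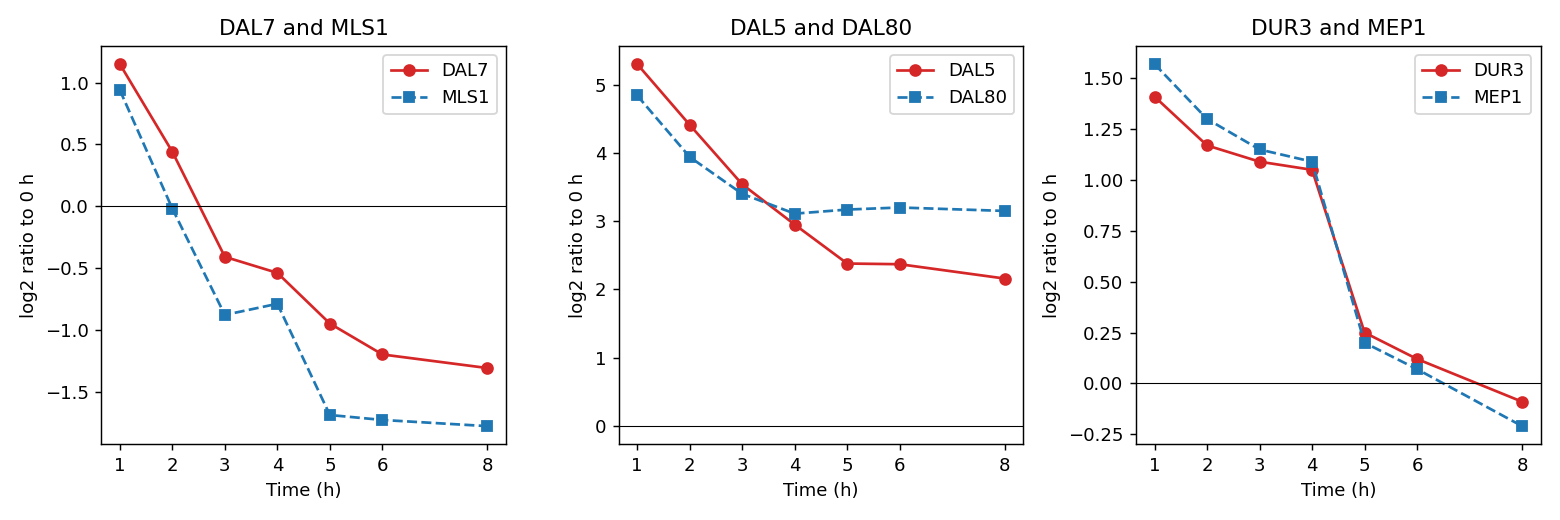
Log2 ratio to 0 h against time in hours for 3 members (red circles) each with another gene (blue squares), 1 deposited value per point, with its own vertical scale in each panel. On the deposited scale MLS1 runs 0.21 to 0.74 below DAL7, and DAL80 levels off above 3 while DAL5 continues to 2.16. MEP1 and DUR3 share the drop between 4 h and 5 h, where 10.7% of all genes differed by 2-fold or more.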

How the data were processed

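The authors deposited log2 ratios, 1 column for each of 7 time points. Per the series design, each is the ratio of messenger RNA at that time to a meiotic mix, relative to the same ratio at 0 h. The platform, the filters, any background correction or within-array normalization, and the way the values of 3 cultures became 1 are not stated in the labels. The number of arrays limits the precision. Since every column is relative to 0 h, a faulty 0 h measurement of a gene would shift its whole course.

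The table was used as deposited. Column medians were -0.04 to 0.01, and whether the authors centred the columns is unknown. Names and gene order came from the RefSeq R64 table, which 5655 of 6141 rows matched. The trend test used limma 3.58.1 in R 4.3.3 (4 residual and 2.35 prior degrees of freedom, threshold 0.05). It was also run on simulated data, but the outcome is not given here and is no evidence for the test on these data. Alternatives changed the scaling, the time terms, the threshold, the baseline and the columns left out. All members were named. Of each other list, genes were named by size of change, by highest and lowest held value, or in full up to 5 genes. The members and lists were chosen with earlier results of these data known.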

Additional observations from a re-analysis of the deposited data

How the results depend on the processing

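With no column left out, the trend test called 7 members under every alternative but the scaling of columns to the same SD, where DAL4 was added. That scaling also turned the fitted difference of DAL81 to the other sign (adjusted p = 0.71 by limma, difference 0.04) and gave 9 steps of 2-fold or more between neighbouring hours, in 4 members, against 0 as deposited. The scaled and centred columns kept the direction of the other members' trends, but scaling changed the fitted difference of DAL5 to -5.69, against -3.12 as deposited, and that of DAL1 to -2.68, against -1.36. Leaving out each column in turn gave 7 called members in each case and 1405 to 2640 called genes (1488 without 2 h, 1405 without 6 h), 5 to 6 induced members and 0 to 1 repressed members. The lone repressed member was lost without 6 h, without 8 h, with scaled columns and at a 3-fold threshold (0 in each case). Taken against 1 h in place of 0 h, 0 members were induced and 6 were repressed, all 6 of them having been highest at 1 h, and of all genes 1111 were induced and 604 repressed. At a 1.5-fold threshold 1949 genes were induced and 1791 repressed, and at 3-fold 676 and 355, against 1236 and 932 at 2-fold. Spot intensities were not used here, so signal over background limits these values to an unknown extent. Motif searches were not run. No paired analysis was possible because each time point is 1 column.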

Other observations

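Permeases of the same families as Dal5 and Dal4 went both ways. Of 7 genes of the allantoate permease family outside DAL5, 3 fell, 1 rose and 3 were not called, where 48.5% of all genes were called, and the median was -0.03 at 1 h. THI73, for a putative permease, fell to 0.15 at 8 h, against 2.45 at 1 h, the highest value of the list at that hour (adjusted p = 0.00858 by limma). VHT1, for the biotin transporter, fell to -0.35 at 8 h, against 1.52 at 1 h (adjusted p = 0.00575 by limma), and FEN2, for the pantothenate transporter, to -0.64, against -0.03 (adjusted p = 0.0288 by limma). SEO1, for a putative permease, rose to 3.26, against 0.81 (adjusted p = 0.0357 by limma). TNA1, for the nicotinic acid transporter, was the lowest held, between -1.60 and -0.47.

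Of the 5 genes of the uracil and allantoin permease family outside DAL4, 0 were above 0 h at 1 h, against 2839 of all 5666 genes. The median of the 5 at 1 h was -1.14. FUI1, for the uridine permease, rose to 0.42 at 8 h, against -1.99 at 1 h (adjusted p = 0.0149 by limma). FUR4, for the uracil permease, stood between -1.28 and -0.90 (adjusted p = 0.953 by limma), THI7, for a thiamine transporter, between -1.25 and -0.73 (adjusted p = 0.926 by limma), and THI72, its relative, between -1.10 and -0.75 (adjusted p = 0.58 by limma). NRT1, for the nicotinamide riboside transporter, stood at -0.68 at 8 h and -0.87 at 1 h, with -0.27 at 4 h, and was called (adjusted p = 0.042 by limma). The ratio of DAL4 to its own 0 h level, 2.24 or more throughout, was above those of all 5 at every hour.

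Peroxisomal genes were among the nearest patterns of DAL1 (FOX2), DAL2 (CTA1), DAL7 (POT1) and DAL4 (PEX9). The import receptor made from PEX9 is known to carry malate synthases into the peroxisome. This was noticed after the values were seen and was not tested. PEX9 matched DAL4 in height and not in shape (r 0.380). When likeness was ranked by Pearson r, a choice also made after seeing the data, 0 of the 14 gene names came out again. That ranking gave DOG2 and ECI1 for DAL1, MLS1 and TFS1 for DAL2, PUS5 and MLS1 for DAL7, and SSU1 and RDH54 for DAL4. Whether the 2 rankings share genes of the same kind was not tested.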
